A study of Mus musculus with 8 samples.

Results

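Nrcam and Rapgefl1 are a pair of mouse genes chosen for strong activation of their newly made RNA only in cells expressing the KLF1-E339K mutant. They were 2 of the 11364 genes listed in both deposited gene tables. Of the 5551 consensus binding sites, 2 had one of these genes as the closest transcription start site (TSS), and both of these sites belonged to Rapgefl1. The changes that selected the genes are the authors' own comparisons, which are not used here. The activation named in the selection therefore could not be checked, and the text below describes levels, binding sites and sequence.

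The study set K1 cells, a Klf1-deficient mouse fetal liver erythroid line, beside K1 lines carrying KLF1 fused to a tamoxifen-responsive estrogen receptor domain (ER). K1-E339K-ER cells carry the fusion with E339K, made in mouse KLF1 to model the human mutation found in congenital dyserythropoietic anemia type IV. Every group shared the Klf1-deficient background. KLF1-E339K-ER ChIP came from 1 library with 1 input library, both made with 200 nM 4-hydroxytamoxifen (4-OHT) for 3 h from clone 2A, and the ChIP library was built from 3 pooled replicates. The 4sU-RNA libraries, in which RNA made during a short 4-thiouridine pulse is isolated, were 3 of K1-E339K-ER cells (clones 1B, 2A and 2B, 200 nM 4-OHT) and 3 of K1 cells (2 with 200 nM 4-OHT, 1 with ethanol), all labeled with 500 µM 4sU for 30 min by the sample labels, while the study's methods state another dose and a longer pulse. The wild type KLF1-ER values in the site table came from libraries of earlier work, which are not among these samples. Values per library were not analysed here, so the depth is unknown, no spread between replicates can be given, and neither Klf1 itself nor the 4-OHT treatment can be checked sample by sample. Every value below is a description with no test.

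KLF1 is an erythroid transcription factor with zinc fingers that read G-rich elements of the CACCC type, and the E339K substitution lies in the part of a finger that contacts the variable base of that element. Nrcam encodes a cell adhesion molecule of the immunoglobulin superfamily, a member of the L1 family best known from axons and nodes of Ranvier, where ankyrins tie it to the cytoskeleton. Rapgefl1 encodes a protein related to the guanine nucleotide exchange factors that load Rap GTPases with GTP.

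The sequences that carry the comparison are the stretches next to both start sites and the sites bound by KLF1-E339K-ER, all read from the plus strand of NCBIM37 (mm9), on which both genes lie. The purine motif was spelled as NGGGAGGGG, NGGGAGTGG, NGGGGGGGG or NGGGGGTGG and the pyrimidine motif as NGGGCGGGG, NGGGCGTGG, NGGGTGGGG or NGGGTGTGG. The motifs differ at position 5, counted from the 5′ end of the 9 letters, where the former has A or G and the latter C or T. Both strands were searched and only exact matches were counted, so a match is a description of the letters and not a shown binding event. Matches to one motif may overlap each other and those of the other motif. The 250 bases before the Nrcam start, chr12:45429622-45429871, are shown because they held 4 purine matches, in capitals, and no pyrimidine match.
Nrcam upstream: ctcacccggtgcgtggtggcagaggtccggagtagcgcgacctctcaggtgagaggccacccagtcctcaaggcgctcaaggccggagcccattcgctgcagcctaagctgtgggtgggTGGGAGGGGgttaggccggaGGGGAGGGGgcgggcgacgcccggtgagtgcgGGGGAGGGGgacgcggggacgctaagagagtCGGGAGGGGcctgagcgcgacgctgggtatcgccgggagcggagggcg
The 250 bases before the Rapgefl1 start, chr11:98697849-98698098, are shown for the contrast, since they held 2 pyrimidine matches, in capitals, and no purine match.
Rapgefl1 upstream: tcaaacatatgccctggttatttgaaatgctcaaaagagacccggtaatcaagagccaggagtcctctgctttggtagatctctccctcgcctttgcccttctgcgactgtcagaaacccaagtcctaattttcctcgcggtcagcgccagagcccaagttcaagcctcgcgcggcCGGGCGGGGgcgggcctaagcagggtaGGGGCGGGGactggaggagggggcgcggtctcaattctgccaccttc

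The first Rapgefl1 site (site 1) is shown in the G run near its centre, chr11:98698440-98698467, and in its coding end, chr11:98698468-98698605, which begins with the start codon. Capitals mark purine matches.
Rapgefl1 site 1 G run: cccctaagagaggggCGGGGGGGGGGGc
Rapgefl1 site 1 start of coding sequence: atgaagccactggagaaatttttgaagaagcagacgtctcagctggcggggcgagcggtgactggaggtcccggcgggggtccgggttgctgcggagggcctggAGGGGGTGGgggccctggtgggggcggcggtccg
The second site (site 2) is shown in its last 300 bases, chr11:98698740-98699039, because its single purine match, in capitals, lay at the far end.
Rapgefl1 site 2: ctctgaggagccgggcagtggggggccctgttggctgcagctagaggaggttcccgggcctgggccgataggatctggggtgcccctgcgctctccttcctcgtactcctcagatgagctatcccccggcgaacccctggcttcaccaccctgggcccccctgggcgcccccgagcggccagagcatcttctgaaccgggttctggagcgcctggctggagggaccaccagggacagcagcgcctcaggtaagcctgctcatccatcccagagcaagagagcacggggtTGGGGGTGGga

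Rapgefl1 (ENSMUSG00000038020.5, Entrez 268480) lies on chromosome 11 from 98698099 to 98715011 and spans 16913 bp. Site 1 covered 354 bp, from 98698252 to 98698605, with its midpoint 329.5 bp inside the gene. All of it fell in exon 1 (98698099 to 98698987), with 216 bp in the 5′ UTR and 138 bp in coding sequence. Site 2 covered 379 bp, from 98698661 to 98699039, with its midpoint 751 bp inside the gene, and it held 327 bp of coding sequence in exon 1 and 52 bp of intron 1. The sites were separated by 55 bp and their midpoints by 421.5 bp, so both lay just downstream of the start and neither reached the upstream stretch.

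KLF1-E339K-ER was enriched at both Rapgefl1 sites, and wild type KLF1-ER was listed at the bottom of its scale at both. At site 1 the concentration, the log2 of the authors' mean normalized ChIP read count, was 5.68 for KLF1-E339K-ER and -0.09 for KLF1-ER. At site 2 the concentration was 7.13 for KLF1-E339K-ER and -0.09 for KLF1-ER. The value of -0.09 was the lowest wild type concentration in the table and was shared by 1424 sites (25.7%), so no fold is given against it. Both Rapgefl1 sites, 2 of 2, had a mutant concentration at least 2 above wild type on the log2 scale, where 55.3% of all 5551 sites did. Most sites of the table passed this mark, so passing it is not particular to Rapgefl1.

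Site 2 was among the strongest KLF1-E339K-ER sites of the table, whereas site 1 was nearer to its middle. The mutant concentration over all sites had a median of 4.86 and ran from -0.38 to 9. Of all sites, 97.2% had a lower mutant concentration than site 2 and 76.6% a lower one than site 1. Among the 1424 sites with the lowest wild type value, whose median mutant concentration was 5.04, these shares were 98.2% and 77.5%. Among the 2190 sites within 1 kb of a TSS they were 96.9% and 76.0%. The order of the sites is the same in any set, since it follows from their concentrations. The sites differed from each other by 1.45 on the log2 scale, or 2.73-fold, in mutant concentration. Each concentration is 1 value per protein without an error, and whether this difference exceeds the spread between libraries was not tested.

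**Figure D1:**
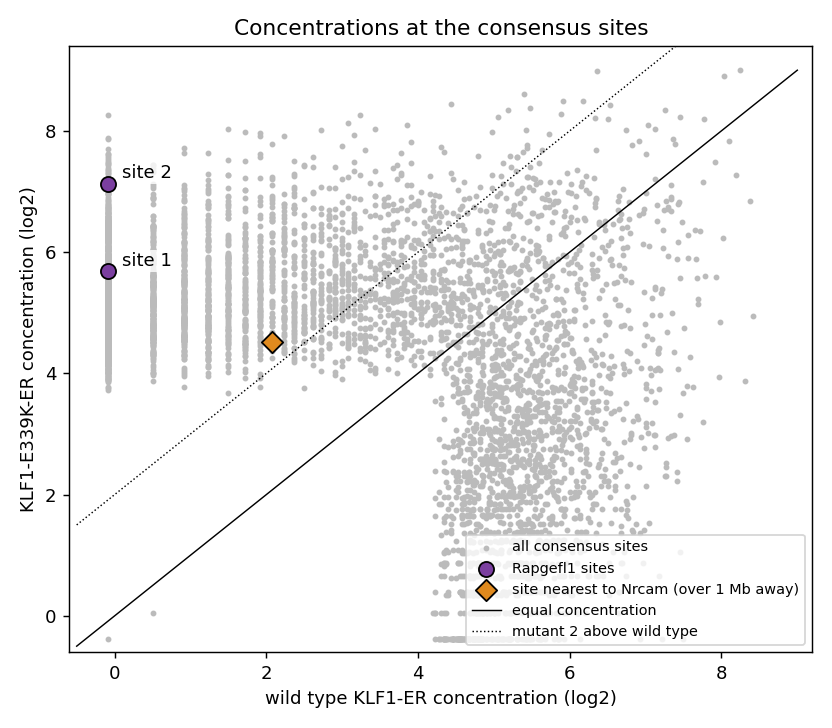
Wild type KLF1-ER concentration (x axis, log2) against KLF1-E339K-ER concentration (y axis, log2) at the 5551 consensus sites (grey points), with the lines of equal concentration and of a mutant value 2 above wild type. Both Rapgefl1 sites (purple) stand at the lowest wild type value, -0.09, at mutant values of 5.68 and 7.13, and the site nearest to Nrcam (orange), 1112 kb from its start, stands at 2.08 and 4.52.

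More than 1 mutant-favoured site at a single promoter was uncommon in the table. Of the 3670 genes named as a closest TSS, 2567 had 1 site, 706 had 2 and 397 had 3 or more. A site at least 2 above wild type within 1 kb of the TSS was found for 986 genes, and at least 2 such sites for 109 of them. Rapgefl1 was 1 of 27 genes with at least 2 sites within 1 kb at the lowest wild type value. The number of genes with at least 1 such site is not given here, so the 27 has no share beside it. The Rapgefl1 sites lie 55 bp apart, and whether they are separate binding events was not tested. The sites of other genes nearest to site 1 in both concentrations, with the identical values of -0.09 and 5.68, had as closest TSS Rara, 2410089E03Rik and 1700120C14Rik, out of 6 tied sites. For site 2 the nearest were a site at Ankrd34a with the same values, -0.09 and 7.13, and sites at Tuba4a and Hip1r with -0.09 and 7.11.

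Within 50 bp of the midpoint, the stronger of the Rapgefl1 sites was the one without a match to either motif, but within 25 bp both sites held 0 matches to either. Within 50 bp of its midpoint site 2 held 0 purine and 0 pyrimidine matches, and over its whole length it held 1 purine match, centred 183 bp past the midpoint, and no pyrimidine match. Site 1 held 4 purine and 2 pyrimidine matches within 50 bp of its midpoint. The 4 purine matches were overlapping readings of the single G run printed above, which lies at the end of the 5′ UTR, and their centres lay 30.5 to 33.5 bp past the midpoint. Over the whole of site 1 there were 5 purine and 3 pyrimidine matches, and the added purine match was the one in the coding stretch.

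By exact matches, neither the presence of the motif at site 1 nor its absence at site 2 was rare among sites. A purine match within 50 bp of the midpoint was found at 35.6% of all sites and at 46.4% of the 3068 sites at least 2 above wild type, so 1645 of the latter (53.6%) lacked one, as site 2 did. With 1 mismatch allowed, a setting chosen after seeing the data, a purine match was found at 89.7% of all sites and at 92.6% of the 3068, and site 2 still held 0, so by this setting it stood with the smaller share. A pyrimidine match was found at 35.3% of all sites and at 21.7% of the 3068. Both Rapgefl1 sites were rich in G and C, at 73.4% for site 1 and 68.1% for site 2, against a median of 59.1% over all sites. Base composition alters how often G-rich words occur, and its part in the matches was not tested.

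**Figure D2:**
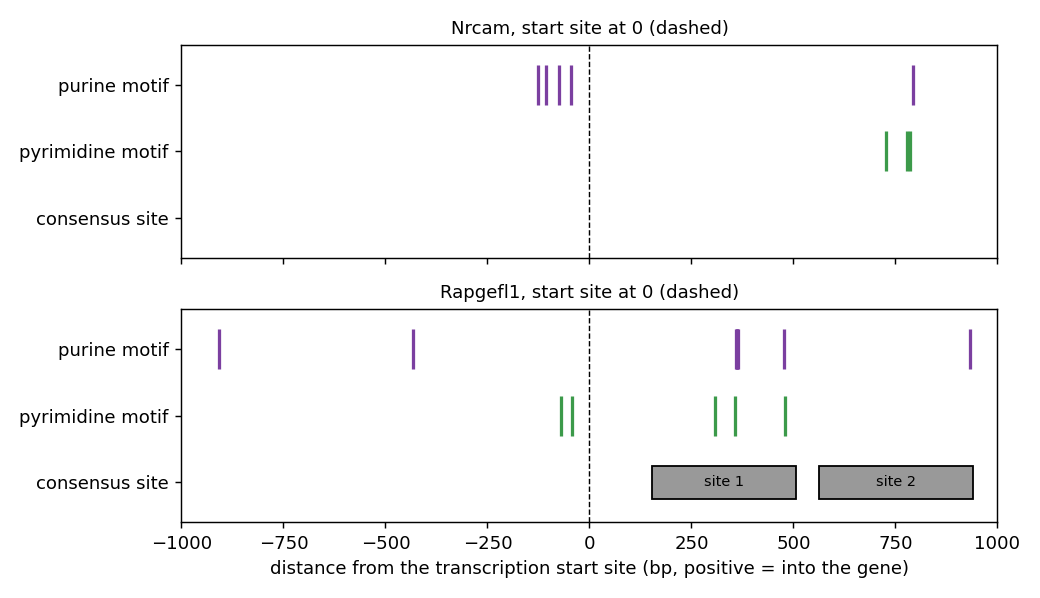
Positions of purine matches (purple), pyrimidine matches (green) and consensus sites (grey bars) within 1000 bp of the Nrcam and Rapgefl1 start sites (x axis, bp, positive into the gene). Nrcam shows 4 purine matches just before the start, matches to both motifs from 728 to 792 bp after it, and no site. Rapgefl1 shows purine matches at -907 and -433 bp, 2 pyrimidine matches nearer to the start, and both sites after it. In site 1, 4 overlapping purine matches are drawn as 1 thick line.

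Nrcam (ENSMUSG00000020598.8, Entrez 319504) lies on chromosome 12 from 45429872 to 45702951 and spans 273080 bp. It was the closest TSS of 0 consensus sites, no site lay in its body, and there were 0 sites within 100 kb and 0 within 1 Mb of its start. The nearest, chr12:44317536-44317846, lay 1112 kb upstream, and the next in the other direction lay 2281 kb downstream. That nearest site had a concentration of 4.52 for KLF1-E339K-ER and 2.08 for KLF1-ER, with Dnajb9, an endoplasmic reticulum co-chaperone gene, as its closest TSS. Of the 10474 listed genes with a position, 817 (7.80%) were over 1 Mb from any site and 6.85% were farther than Nrcam. The median gene was 53.6 kb from a site. The table lists merged peaks only, so weaker binding near Nrcam cannot be judged from it.

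The upstream stretch of Nrcam held the letters of the purine motif without a listed site. Its 4 purine matches were centred at -127, -107, -75 and -44 bp from the start, all on the plus strand and none overlapping. Before Rapgefl1 the 2 pyrimidine matches were centred at -70 and -43 bp. At least 4 purine matches were found in 2.95% of 32851 RefSeq promoters of 300 bp (GRCm38.p6), and a purine match without a pyrimidine match in 10.9%. At least 1 purine match was in 22.6% of these promoters and at least 1 pyrimidine match in 29.7%, and 18.0% resembled Rapgefl1 in holding the latter without the former. G made up 47.6% of the 250 bases before Nrcam and 29.6% of those before Rapgefl1.

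Within 1 kb on either side of the start, Nrcam held 5 purine and 3 pyrimidine matches and Rapgefl1 held 8 and 5. With overlapping matches merged, the purine matches formed 5 separate stretches at each gene. The pyrimidine matches formed 2 at Nrcam and 5 at Rapgefl1. The higher purine count at Rapgefl1 thus rests on overlapping matches, which the ranks below count separately. The purine count was higher than at 80.9% of positioned genes for Nrcam and at 91.5% for Rapgefl1, against a median of 1 match. The pyrimidine count was higher than at 63.8% and 86.8%, against a median of 2. Of the 8 purine matches at Rapgefl1, 6 were in the sites, 4 of them overlapping readings of the single G run. The other 2 were on the minus strand at -907 and -433 bp from the start. Among the 1999 genes with at least 5 purine matches, 615 (30.8%) had a consensus site within 1 kb of the start, compared with 1737 (16.6%) of all positioned genes. Nrcam belonged with the larger number that held the letters and had no site. Over the whole gene body the purine motif occurred 0.513 times per kb in Nrcam, 140 matches in all, and 1.24 times per kb in Rapgefl1, 21 matches in all. For the pyrimidine motif the densities were 0.157 and 0.887 per kb.

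Sites were dense around Rapgefl1 and sparse around Nrcam. Chromosome 12 held 176 sites and chromosome 11 held 549. Around Rapgefl1 there were 17 sites within 100 kb of the start and 46 within 1 Mb, of which 11 and 36 were at least 2 above wild type, where 55.3% of all sites were. Beside its own pair, the 15 other sites within 100 kb began 41.6 kb away and had as closest TSS Thra (10 sites), Nr1d1 (3), Msl1 (1) and Rara (1). Thra and Rara encode nuclear receptors for thyroid hormone and retinoic acid, Nr1d1 the circadian repressor REV-ERBα, and Msl1 a subunit of a histone acetyltransferase complex. The mutant concentration of these 15 sites ran from 3.69 to 8.21 with a median of 6.31, and their wild type concentration from -0.09 to 6.48 with a median of 3.77. Of the 17 sites, 4 exceeded site 2 in mutant concentration and 12 exceeded site 1. KLF1-ER was at its lowest listed value at 3 of the 15 and was at least 2 above the mutant at 1, near Nr1d1.

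The nearest of the neighbouring genes examined had no site of their own. For Nrcam only the gene before it was taken. Casc3, an exon junction complex gene, ends 2971 bp before Rapgefl1, and Wipf2, an actin regulator gene, lies 9941 bp beyond it. Each was the closest TSS of 0 sites, as was Cdc6, a DNA replication licensing gene 54104 bp beyond Rapgefl1. Their mean 4sU-RNA levels were 6.71, 5.69 and 7.17 log2 CPM. Pnpla8, a phospholipase gene 16542 bp before Nrcam, had 0 sites and a mean level of 4.09 log2 CPM.

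**Figure D3:**
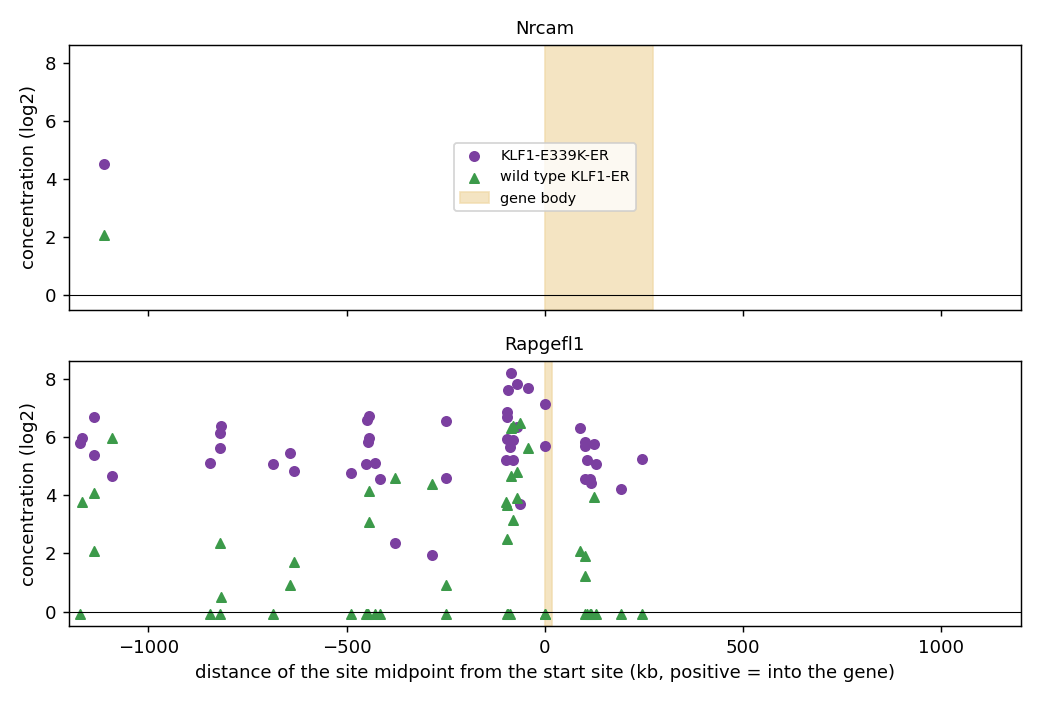
Concentration of KLF1-E339K-ER (purple circles) and KLF1-ER (green triangles) at each consensus site (y axis, log2) by distance from the start of Nrcam or Rapgefl1 (x axis, kb), with the gene body shaded. Around Nrcam there is 1 site in the window, at its upstream edge, while 17 sites lie within 100 kb of Rapgefl1.

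Both genes lay below the middle of the table per unit of length. That both were listed follows from the selection, which drew on the listed genes. The deposited level is the authors' mean log2 CPM over all libraries of their fit. It joins cells with and without KLF1 fusions, so it says nothing of a difference between lines. Each gene has the same mean in the mutant and wild type comparisons, so the fit appears to hold KLF1-ER libraries beyond those described above. The K1-E339K-ER line, for whose RNA changes the members were chosen, is part of this mean. Rapgefl1 had a mean of 3.34 log2 CPM, above 24.7% of the 11364 genes, and Nrcam had 5.10, above 46.9%, against a median of 5.27 and a range from -2.28 to 14.76. The deposited length was 16221 bp for Rapgefl1 and 272962 bp for Nrcam, which is longer than 97.5% of genes and near the full span of the gene, introns included. Divided by this length, the level was -0.68 log2 CPM per kb for Rapgefl1, above 27.3% of genes, and -2.99 for Nrcam, above 10.0%. The order of the members thus turned with the scale. The difference, Nrcam minus Rapgefl1, was 1.76 in log2 CPM and -2.31 in log2 CPM per kb. Both quantities carry no error.

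In the L1 family, Nrcam was the 1 listed gene of 4, and L1cam, Chl1 and Nfasc were in neither table. Nrcam was chosen from the listed genes, so its own listing was fixed by the selection and is no result about the family. Of 8 genes for partners of the family (ankyrins, contactins, neuropilins and the scaffold Dlg1), 7 were listed, from 3.46 to 9.03 log2 CPM. Ank1, the erythrocyte ankyrin, stood highest at 9.03 log2 CPM and was closest to 2 sites, at which KLF1-ER had 5.02 and 6.41 and KLF1-E339K-ER had 3.67 and 3.75. Ank3 was closest to 1 site, with 5.08 for KLF1-ER and 2.81 for KLF1-E339K-ER. Dlg1 had 3 sites, and at the one 154 bp from its TSS KLF1-E339K-ER had 5.58 and KLF1-ER 2.08. That was the only site of the 6 in this list at least 2 above wild type, a share below the 55.3% of the table. Dlg1 sites farther from the TSS had 4.82 and 5.39 for KLF1-ER against 0.66 and 3.72 for KLF1-E339K-ER.

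Among 7 genes of the Rap exchange factors, 3 were listed, Rapgefl1 among them by the selection. Rapgef1, an exchange factor gene of the Crk pathway, had a mean of 9.22 log2 CPM, or 2.31 per kb, and Rapgef6 had 6.99, or -0.47 per kb, so Rapgefl1 was the lowest of the 3 on both scales. Rapgefl1 was the only listed exchange factor with a consensus site. Of 5 genes of the Rap GTPases themselves 4 were listed and 3 had a site, each within 1 kb of the TSS. At Rap1b the concentration was 4.44 for KLF1-E339K-ER and -0.09 for KLF1-ER at a site 442 bp from the TSS. At Rap1a it was 4.02 and 2.91 in the same order, and at Rap2b it was 1.21 and 5.74. Rap1b thus shared with Rapgefl1 a wild type value at the bottom of the scale, while at Rap2b KLF1-ER was the higher.

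Of 6 genes of the Rap GTPase activating proteins, which return Rap to its GDP-bound state, 4 were listed and 2 had a site. Sipa1 had a site 568 bp from its TSS with 5.43 for KLF1-E339K-ER and -0.09 for KLF1-ER, and another 1925.5 bp from it with 8.10 and 7.03. At Rap1gap2 the site had 1.55 for KLF1-E339K-ER and 4.34 for KLF1-ER. Over the 3 Rap lists, 8 sites were named and 4 of them, the pair at Rapgefl1 and those at Rap1b and Sipa1, were at least 2 above wild type. That share is near the 55.3% of the table, and the pair at Rapgefl1 is part of it. The Rap1b site and the Sipa1 site nearer to its TSS each held 0 purine matches and 1 pyrimidine match within 50 bp of the midpoint. The mutant concentrations at these sites, 4.44 and 5.43, were below those at both Rapgefl1 sites.

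**Figure D4:**
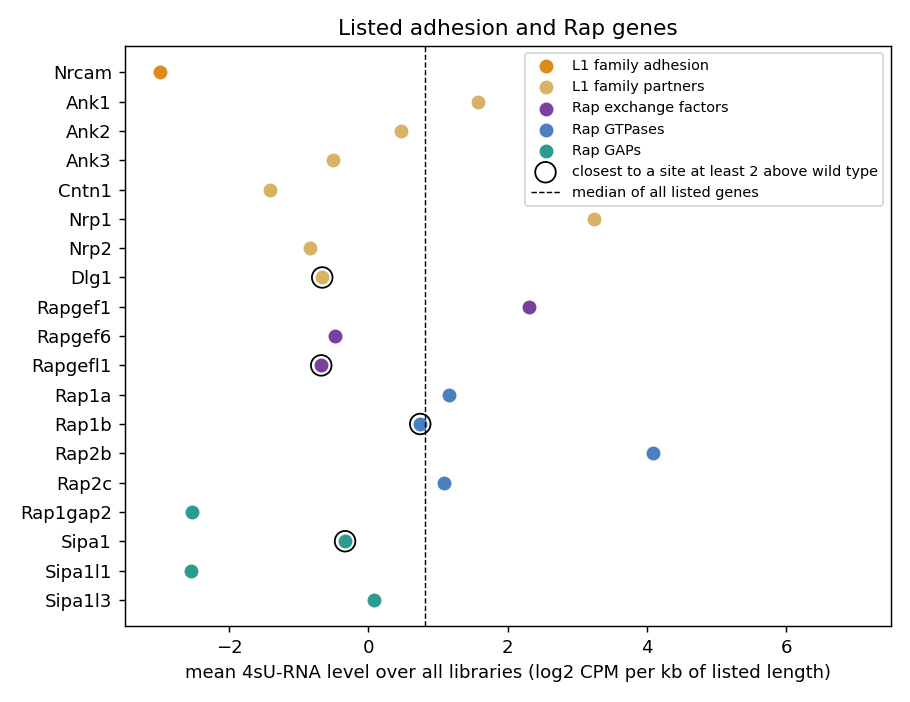
Mean 4sU-RNA level (x axis, log2 CPM per kb of listed length, the authors' mean over all libraries of their fit) of the listed genes of the L1 and Rap lists, with circles around genes closest to a site at least 2 above wild type and a dashed line at the median of all genes, 0.82. Nrcam is the lowest at -2.99 and Rapgefl1 stands at -0.68, and the value of Nrp1 rests on a listed length of 1170 bp.

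As a check of the erythroid label, 7 of 7 erythroid markers were listed at 3.79 to 9.79 log2 CPM. Of 4 myeloid markers 2 were listed, Elane at 0.77 and Mpo at 1.84, and of 4 neural markers 2 were listed, Tubb3 at 4.46 and Syt1 at 7.94. Hba-a1, the lowest of the erythroid markers, has a near-identical copy and its level is uncertain. Per kb of listed length, Syt1, a long gene, stood at -1.06 log2 CPM per kb, below the median of 0.82, and Tubb3 stood at 1.07, above that median and above the erythroid marker Alas2 at 0.75.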

How the data were processed

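The series holds 8 libraries, and 2 gene tables and 1 site table deposited with it were used. The wild type KLF1-ER values in them rest on libraries of earlier work that are not among the 8. The authors mapped reads to mm9 with TopHat2 2.0.10 and TMAP, called peaks with MACS2 and GEM, compared concentrations with DiffBind and fitted limma-voom (treat). The versions of the last tools, the counter and the gene annotation are not given in the sources used here. The authors' deposited values on the log2 scale are mean log2 CPM per gene over all libraries of their fit and the DiffBind concentration per protein and site. Deposited lengths, positions and TSS distances are in bp. Columns of the authors' own comparisons (log2 fold change, t, p-value, Fold and FDR) were not used.

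Members and gene lists were chosen with earlier results of these data known. Named genes are the members, the genes of the L1, Rap and marker lists, neighbours, and the 3 sites nearest in both concentrations. Tables were joined on Entrez identifier, length and mean, since 779 symbols differ. Levels per kb subtract the log2 of the length in kb. Gene positions (GENCODE M1) were found for 10474 genes (92.2%), and 85.1% of these had a deposited length within 10% of the annotated span. Sequence was read from NCBIM37 with pysam 0.24.0. Promoters for the shares are RefSeq's, and both members' entries matched NCBIM37 exactly. The motif search was tested on simulated data. A site was counted as mutant-favoured at a difference of at least 2 on the log2 scale. Depth is unknown, and no test was run.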

Additional observations from a re-analysis of the deposited data

How the results depend on the processing

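Of 26 alternatives, 13 were counted as close to the reported value and 13 as moved. The split follows no single relative size. For site 1, 5 purine matches in place of 4 counted as close, while for site 2, 96.3% in place of 97.2% counted as moved. Counting sites within 100 kb of the start in place of the listed closest TSS gave 17 for Rapgefl1. Ranked among sites at least 2 above wild type, 67.8% were below site 1 and 96.3% below site 2. Within 25 bp of the midpoint site 1 held 0 purine and 0 pyrimidine matches, so its matches near the centre depend on the window, and over the whole of site 2 there was 1 purine match. With 1 mismatch allowed, a setting chosen after seeing the data, site 1 held 17 purine and 7 pyrimidine matches and site 2 held 0 and 1. Not divided by length, the level was above 46.9% of genes for Nrcam and 24.7% for Rapgefl1. Among genes of at least 0 log2 CPM, the level per kb was above 7.67% for Nrcam and 25.1% for Rapgefl1. Concentrations without errors and unknown depth limit every value above. No paired analysis was possible, because the values used are 1 mean per gene and 1 concentration per protein and site.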
